A study of Arabidopsis thaliana with 2 samples.

Results

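The genes described here encode the enzymes of chlorophyll synthesis and of the Calvin cycle, the chloroplast pathway that fixes carbon dioxide. They were chosen by locus identifier as 45 genes, and 44 of them were listed among the 20612 loci of the table. The first 26 are enzymes of tetrapyrrole and chlorophyll synthesis together with the transcription factors GLK1 and GLK2, of which 25 were listed. The other 19 are the Rubisco small subunits, Rubisco activase and Calvin cycle enzymes, all listed. PORA (AT5G54190) was not analysed here.

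Chlorophyll is built in the plastid from glutamate. A common trunk of reactions leads through 5-aminolevulinate to protoporphyrin IX, where the path divides: ferrochelatase inserts iron to make heme, and magnesium chelatase inserts magnesium to start the chlorophyll branch. GLK1 and GLK2 are transcription factors that activate many nuclear genes for chlorophyll synthesis and light harvesting. In the Calvin cycle Rubisco joins carbon dioxide to ribulose bisphosphate, phosphoglycerate kinase and glyceraldehyde-phosphate dehydrogenase reduce the product to sugar phosphate, and the remaining enzymes rebuild the acceptor. Arabidopsis embryos turn green later in their development, and the chloroplasts lose their colour again as the seed matures.

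Strand-specific mRNA-Seq of poly(A) RNA gave 1 library of wild-type Col-0 embryos and 1 library of dcl1-5 embryos, both at the early globular stage and each from a pool of 30 embryos dissected by hand. The dcl1-5 strain carries a mutant allele of DICER-LIKE1 (DCL1), which encodes the enzyme that releases plant microRNAs from their precursors. The parent plants had days of 16 hours of light followed by 8 hours of dark. Values are RPM, reads of a gene scaled to the genome-matching reads of its library. The libraries held 5611643 and 4513588 such reads in wild type and dcl1-5, so that 1 read stood for 0.178 and 0.222 RPM. Since each genotype has 1 library, the differences could not be checked against replicates and the genotypes are compared without p-values. Square brackets hold exact 95% intervals that reflect counting error alone. They leave out any error from the amplification of the RNA before sequencing.

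DCL1 (AT1G01040) had 26 reads, 4.63 RPM, in wild type and 3 reads, 0.665 RPM, in dcl1-5. Embryo markers were read in both libraries, with 251 and 287 RPM for the embryo regulator LEC1 and 4215 and 3106 RPM for the protodermal gene PDF1 in wild type and dcl1-5. Markers of the seed coat, the maternal tissue around the embryo, mostly had more RPM in dcl1-5, like the genes described below. Of 12 such markers 11 had more RPM in dcl1-5, as did 68.6% of all listed loci, and none was at 0 in either library. The summed level of the 12 was 199.9 RPM in wild type and 398 RPM in dcl1-5. Of 9 endosperm markers 7 were listed, 4 with more and 3 with fewer RPM in dcl1-5, and their sum was 30.1 and 59.4 RPM. AGL62 (AT5G60440), a factor of the dividing endosperm, had 9 wild-type reads and 1 dcl1-5 read, a ratio of 0.138 [0.00315 to 0.997]. The part of these tissues in the differences below was not tested. In whole embryos, fewer cells of a type and less RNA per cell cannot be told apart.

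Genes of chlorophyll synthesis and carbon fixation were higher in dcl1-5 embryos. All 44 listed members had more RPM in the dcl1-5 library, as did 68.6% of all listed loci. Their summed level was 2618 RPM in wild type and 7723 RPM in dcl1-5, and without the most abundant member, RBCS1A, it was 1234 and 3246 RPM. Log2 ratios were taken as log2((dcl1-5 RPM + 1) / (wild-type RPM + 1)), and a gene was called at 2-fold on that scale when its mean over both libraries was at least 5 RPM. Of the 39 members that reached this mean, 29 were at least 2-fold higher and 0 were at least 2-fold lower, against 33.8% and 4.58% of all 10240 genes tested. Of these 39 members 10 had less than 5 RPM in wild type and reached the mean through their dcl1-5 value, which favours a call of higher, and all of them but DVR and CP12-2 were called. With no filter 32 of the 44 were at least 2-fold higher, against 27.7% of all loci.

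Most genes tested, 75%, were higher in dcl1-5 on this scale, and this upward shift was smaller for abundant genes. The median log2 ratio of all genes tested was 0.63, and that of the 39 members was 1.51. After 0.63 was subtracted from every gene, 17 of the 39 passed 2-fold upward and 0 downward, against 14.6% and 14.4% of all genes tested. With trimmed-mean (TMM) scaling, which set the median of all genes to 0.00, 18 of 39 passed 2-fold upward and 0 downward. Of all genes tested 14.6% and 14.2% did so. A positive log2 ratio with this scaling was found for 39 of the 44 listed members, against 50.1% of all loci. At a mean of 5 to 20 RPM, 10 of 14 members were at least 2-fold higher, against 40.9% of all genes in that range. From 20 to 100 RPM it was 15 of 19, against 29.7%, and at 100 RPM or more 4 of 6, against 15.2%. The members' median log2 ratio was nearly level over these ranges, at 1.56, 1.40 and 1.45, while that of all genes fell from 0.79 to 0.59 and 0.12.

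**Figure D1:**
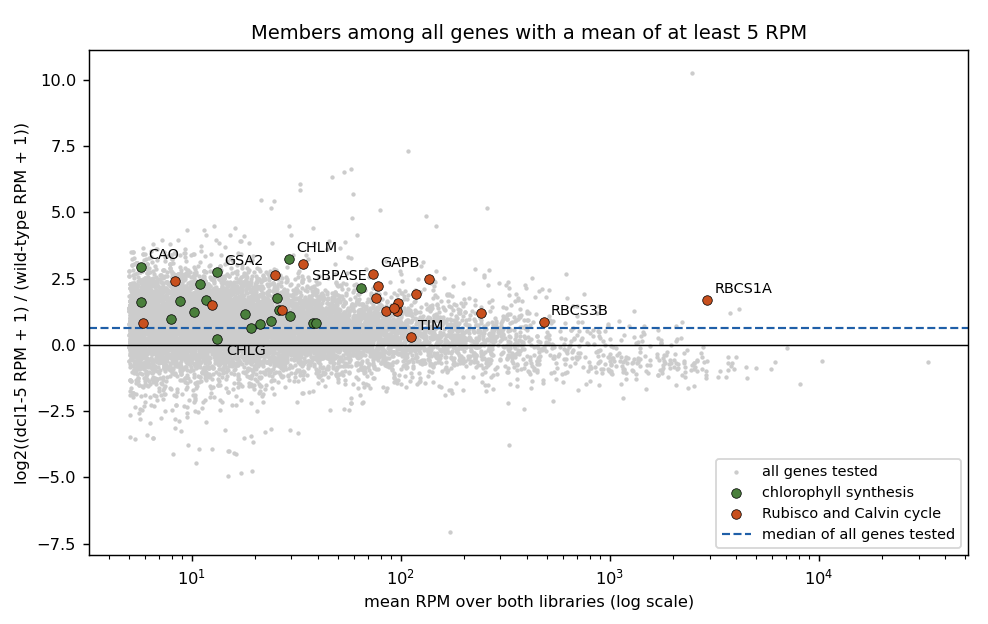
Log2 ratio of dcl1-5 to wild type (pseudocount of 1 RPM) against mean RPM over both libraries on a log axis, for all 10240 genes at or above 5 RPM on average (grey) and the 39 members among them (coloured). The members all lie above 0, CHLG and TIM lie below the dashed median of all genes at 0.63, and RBCS1A stands at the right.

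The trunk of the pathway from glutamate to protoporphyrin IX had the lower log2 ratios within tetrapyrrole synthesis, and no test of the difference was made. Of its 11 genes 10 reached the mean of 5 RPM, and 5 of these were 2-fold higher or more, against 33.8% of all genes tested. After the shift of 0.63 was subtracted it was 3, against 14.6%. These 3, HEMA1, GSA2 and HEME2, had less than 5 RPM in wild type and reached the mean through their dcl1-5 value. The filter favours such calls, so the count of 3 supports no direction. The median log2 ratio of the 10 was 1.04, and that of all 11 was 0.91. HEMA1 (AT1G58290), the main glutamyl-tRNA reductase and the entry point of the pathway, had 28 wild-type reads and 83 dcl1-5 reads, or 4.99 and 18.4 RPM, a ratio of 3.69 [2.38 to 5.88]. Its isoform HEMA2 (AT1G09940) had 14 and 16 reads, 2.49 and 3.54 RPM, and its ratio of 1.42 had an interval of 0.65 to 3.14 that includes equality. HEMA2 is the isoform known from non-green tissue and stress.

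The next step, glutamate-1-semialdehyde aminotransferase, is shared by a pair of genes that differed in how far they moved. GSA1 (AT5G63570) went from 27.3 to 48.5 RPM, a ratio of 1.78 [1.44 to 2.202]. GSA2 (AT3G48730) went from 2.67 RPM, on 15 reads, to 23.7 RPM, on 107 reads, a ratio of 8.87 [5.14 to 16.4]. The GSA2 ratio was the highest of the trunk. HEMB1 (AT1G69740), which joins 5-aminolevulinate molecules into a pyrrole, and HEMC (AT5G08280), which links the pyrroles, had 27.98 and 15.3 RPM in wild type. In dcl1-5 they had 51.0 and 27.0 RPM, ratios of 1.82 [1.48 to 2.25] and 1.76 [1.33 to 2.35]. Both were short of 2-fold.

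HEMD (AT2G26540), which closes the tetrapyrrole ring, had 13 wild-type reads and 41 dcl1-5 reads, or 2.32 and 9.08 RPM, a ratio of 3.92 [2.06 to 7.98]. The uroporphyrinogen decarboxylases HEME1 (AT3G14930) and HEME2 (AT2G40490) were both called, from 10.7 to 25.3 RPM (2.36 [1.71 to 3.29]) and from 3.74 to 13.7 RPM (3.67 [2.21 to 6.34]). Coproporphyrinogen oxidase HEMF1 (AT1G03475) had 16.4 and 31.7 RPM and protoporphyrinogen oxidase PPO1 (AT4G01690) 14.8 and 23.5 RPM. Their ratios were 1.93 [1.48 to 2.54] and 1.59 [1.18 to 2.14], and the log2 ratio of PPO1 was 0.00 with TMM scaling. Within the trunk, the 4 called genes with less than 5 RPM in wild type were HEMA1, GSA2, HEMD and HEME2.

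The magnesium branch, which leads only to chlorophyll, had a median log2 ratio of 1.56, or 1.97 over all genes listed. Of its 13 genes 12 were listed and 10 reached the mean of 5 RPM. Of these 10, 8 were 2-fold higher or more, against 33.8% of all genes tested, and 5 after the shift was subtracted, against 14.6%. Magnesium chelatase has H, D and I subunits. CHLH (AT5G13630), the porphyrin-binding subunit also known as GUN5, went from 18.5 to 40.3 RPM, a ratio of 2.18 [1.70 to 2.80]. CHLD (AT1G08520) went from 5.70 to 14.8 RPM (2.60 [1.68 to 4.1001]) and CHLI1 (AT4G18480) from 14.4 to 37.9 RPM (2.62 [2.003 to 3.46]). These 3 subunits were similar in ratio, and none was 2-fold higher net of the shift. The minor subunit gene CHLI2 (AT5G45930) had 3 wild-type reads and 27 dcl1-5 reads, a ratio of 11.2 [3.44 to 57.6], with a mean under 5 RPM.

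GUN4, CHLM and CRD1, which act beside or just after the chelatase, had higher ratios than CHLH, CHLD and CHLI1. GUN4 (AT3G59400), which binds porphyrin and stimulates the chelatase, went from 3.03 to 18.8 RPM, on 17 and 85 reads, a ratio of 6.22 [3.66 to 11.2]. CHLM (AT4G25080), the methyltransferase that follows, had 27 wild-type reads and 241 dcl1-5 reads, or 4.81 and 53.4 RPM, a ratio of 11.1 [7.44 to 17.2]. Its log2 ratio of 3.23 was the highest of the 39 members at a mean of 5 RPM and ranked 94 among all 10240 genes tested. CRD1 (AT3G56940), a subunit of the cyclase that forms the fifth ring, had the highest level per length of the 25 listed tetrapyrrole members, 15.4 RPM per kb of exon in wild type and 71.2 RPM per kb in dcl1-5. It went from 23.0 to 106 RPM, on 129 and 480 reads, a ratio of 4.63 [3.80 to 5.66].

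Later steps of the branch were spread from the lowest to near the highest log2 ratio of all members. The divinyl reductase DVR (AT5G18660) had 28 and 49 reads, 4.99 and 10.9 RPM. Its plain ratio of 2.18 [1.34 to 3.60] is 0.99 as a log2 ratio with the pseudocount, just short of the call. The light-dependent protochlorophyllide reductase PORB (AT4G27440) went from 11.05 to 40.3 RPM, a ratio of 3.65 [2.72 to 4.95]. PORC (AT1G03630), the isoform known from mature green leaves, had 4 and 34 reads, a ratio of 10.6 [3.77 to 41.0], under the mean of 5 RPM.

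CHLG (AT3G51820), chlorophyll synthase, attaches the phytyl tail and was the exception. It had 68 wild-type reads and 65 dcl1-5 reads, 12.1 and 14.4 RPM, a ratio of 1.19 with equality inside its interval of 0.833 to 1.69. Its log2 ratio of 0.23 turned to -0.21 with median-of-ratios scaling and to -0.39 with TMM scaling. CAO (AT1G44446), the oxygenase that converts chlorophyll a to chlorophyll b, had 3 wild-type reads and 49 dcl1-5 reads. That is 0.535 and 10.9 RPM, a ratio of 20.3 [6.55 to 102] that rests on 3 wild-type reads. Within the magnesium branch, GUN4, CHLM, DVR and CAO had less than 5 RPM in wild type and reached the mean through their dcl1-5 value. All of them but DVR were called, also net of the shift, and the filter favours such calls.

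GLK1 and GLK2, which overlap in function, differed from each other. GLK1 (AT2G20570) had 15 reads in each library, 2.67 RPM in wild type and 3.32 RPM in dcl1-5, a ratio of 1.24 [0.566 to 2.73]. GLK2 (AT5G44190) had 3 wild-type reads and 30 dcl1-5 reads, 0.535 and 6.65 RPM, a ratio of 12.4 [3.87 to 63.7]. Both had means under 5 RPM. Of the reads of the pair, GLK2 gave 16.7% [3.58% to 41.4%] in wild type and 66.7% [51.0% to 80.0%] in dcl1-5, intervals that do not overlap.

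**Figure D2:**
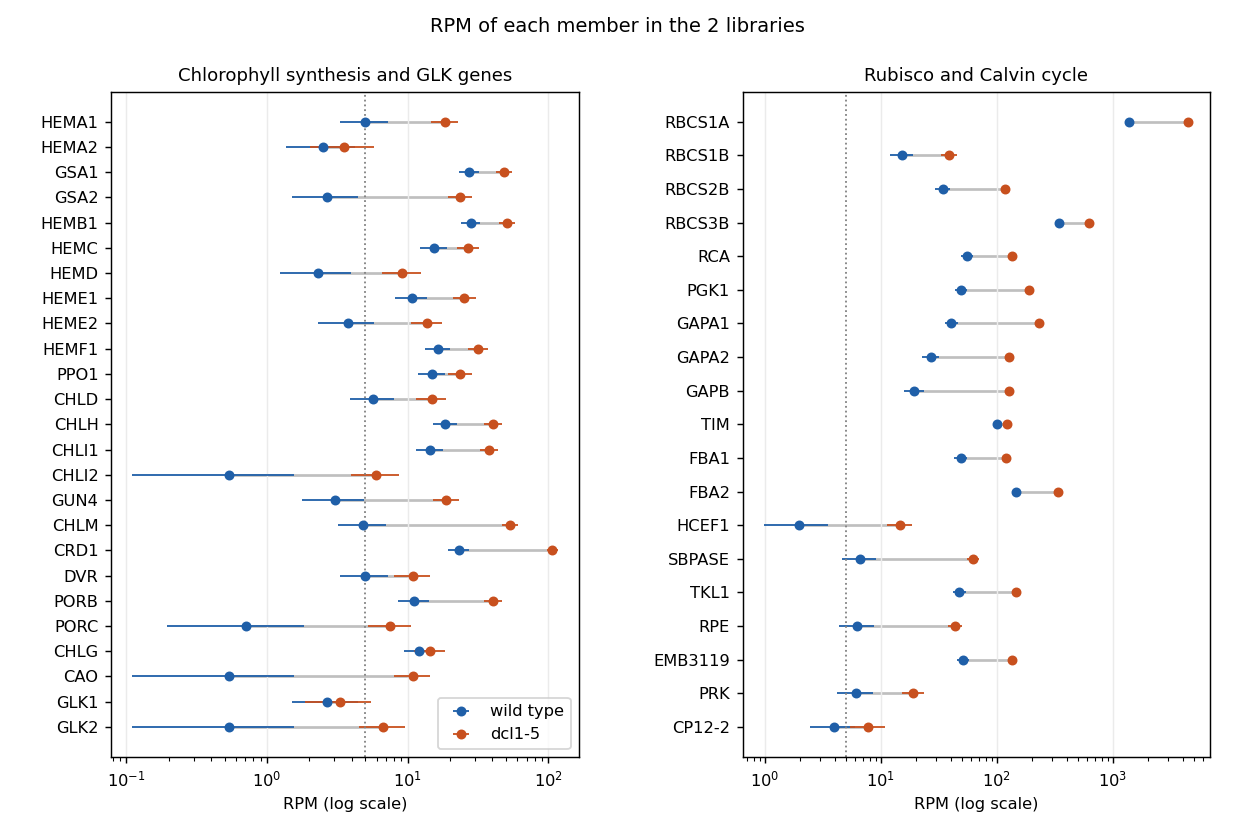
RPM of the 44 listed members in wild type (blue) and dcl1-5 (orange) on log axes, in pathway order, with exact Poisson 95% intervals as bars and the filter value of 5 RPM dotted. Every orange point lies to the right of its blue point, with bars that overlap for HEMA2, CHLG, GLK1 and CP12-2, and RBCS1A reaches 4477 RPM.

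Rubisco had the highest levels per length of these genes in both libraries. The small subunit gene RBCS1A (AT1G67090) had 7763 wild-type reads and 20207 dcl1-5 reads, or 1383 and 4477 RPM, a ratio of 3.24 [3.15 to 3.32]. Per kilobase of annotated exon it had 1091 and 3531 RPM per kb, which ranked 145 and 13 among 20509 loci with a known length. RBCS3B (AT5G38410) went from 343 to 621 RPM, a ratio of 1.81 [1.71 to 1.92]. The tandem copies RBCS2B (AT5G38420) and RBCS1B (AT5G38430) had 34.2 and 15.1 RPM in wild type and 117 and 38.8 RPM in dcl1-5. Their ratios were 3.43 [2.90 to 4.07] and 2.56 [1.96 to 3.36]. RBCS3B was therefore the small subunit gene short of 2-fold, and RBCS1A took 80.1% [79.3% to 80.9%] of the reads of RBCS1A and RBCS3B together in wild type and 87.8% [87.4% to 88.2%] in dcl1-5. Arabidopsis small subunit genes are known to be close copies, and reads with several matches were discarded, so each value may be an undercount, by an amount that was not measured. Rubisco activase RCA (AT2G39730), which frees blocked Rubisco sites, went from 55.4 to 136 RPM, a ratio of 2.45 [2.14 to 2.82].

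The reduction steps were the most shifted group of the Calvin cycle. All 4 genes were at least 2-fold higher, also net of the shift, against 33.8% and 14.6% of all genes tested. Their median log2 ratio was 2.35. Phosphoglycerate kinase PGK1 (AT3G12780) had 277 and 848 reads, 49.4 and 188 RPM, a ratio of 3.81 [3.32 to 4.37]. The photosynthetic glyceraldehyde-phosphate dehydrogenase is built of A and B subunits. GAPA1 (AT3G26650) went from 40.5 to 233 RPM (5.76 [4.99 to 6.68]) and GAPA2 (AT1G12900) from 26.9 to 128 RPM (4.76 [3.97 to 5.73]). GAPB (AT1G42970) went from 19.4 to 128 RPM (6.57 [5.35 to 8.14]). Of the reads of both A genes, GAPA2 gave 39.9% [34.97% to 45.1%] and 35.5% [33.1% to 37.8%] in wild type and dcl1-5, intervals that overlap.

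Enzymes that regenerate the acceptor were more uneven, with a median log2 ratio of 1.51. Of 9 genes 8 were 2-fold higher or more, against 33.8% of all genes tested, and 3 after the shift was subtracted, against 14.6%. Sedoheptulose-bisphosphatase SBPASE (AT3G55800) had 37 wild-type reads and 279 dcl1-5 reads, 6.59 and 61.8 RPM, a ratio of 9.37 [6.64 to 13.6]. Plastid fructose-bisphosphatase HCEF1 (AT3G54050) had 11 and 66 reads, 1.96 and 14.6 RPM, a ratio of 7.46 [3.91 to 15.7]. Ribulose-phosphate epimerase RPE (AT5G61410) went from 6.24 to 43.6 RPM, on 35 and 197 reads, a ratio of 6.998 [4.87 to 10.3]. Those 3 are the regeneration genes that remained called net of the shift, and all 3 were below 7 RPM in wild type.

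Phosphoribulokinase PRK (AT1G32060), which makes the Rubisco substrate, went from 6.06 to 19.1 RPM, a ratio of 3.14 [2.09 to 4.83]. Transketolase TKL1 (AT3G60750) went from 47.6 to 146 RPM (3.06 [2.65 to 3.55]) and ribose-phosphate isomerase EMB3119 (AT3G04790) from 50.8 to 136 RPM (2.67 [2.32 to 3.09]). The plastid aldolases FBA1 (AT2G21330) and FBA2 (AT4G38970) had close ratios. FBA1 went from 48.6 to 121 RPM, a ratio of 2.48 [2.14 to 2.88]. FBA2 went from 146 to 337 RPM, a ratio of 2.30 [2.12 to 2.51]. Plastid triosephosphate isomerase TIM (AT2G21170) was the regeneration gene short of the call, with 567 wild-type reads and 556 dcl1-5 reads. Its 101 and 123 RPM gave a ratio of 1.22 [1.08 to 1.37], and its log2 ratio of 0.28 turned to -0.19 with median-of-ratios and -0.38 with TMM scaling. CP12-2 (AT3G62410), a small protein that holds PRK and the dehydrogenase in an inactive complex, had 22 and 35 reads, 3.92 and 7.75 RPM, a ratio of 1.98 [1.13 to 3.54].

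**Figure D3:**
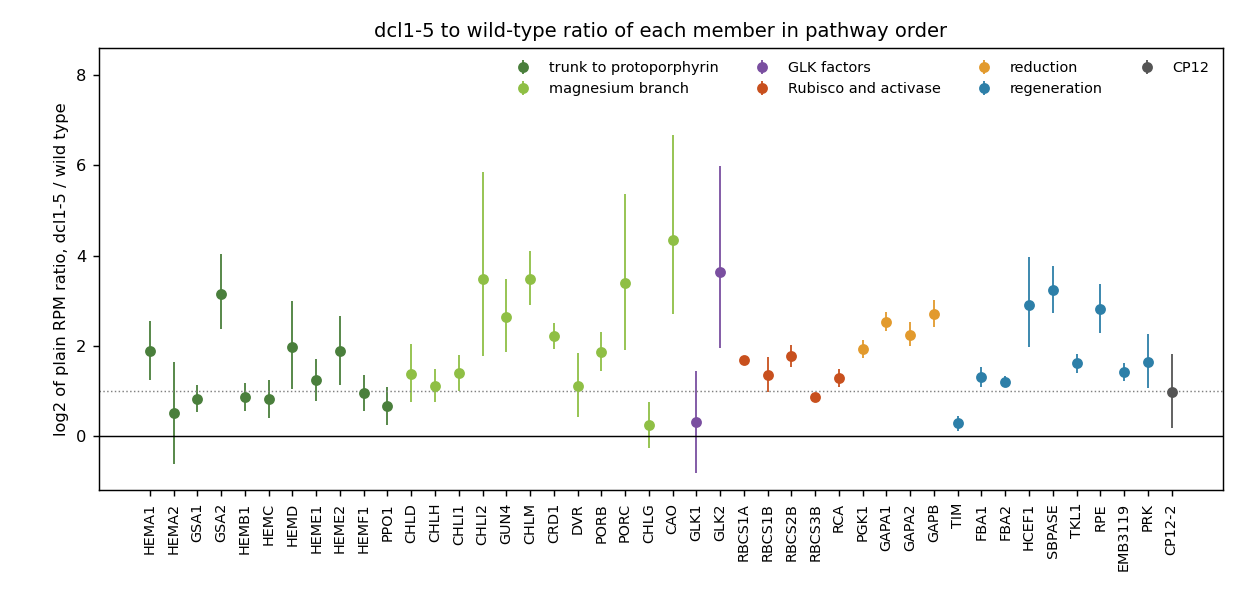
Log2 of the plain RPM ratio of dcl1-5 to wild type for the 44 listed members in pathway order, with exact conditional 95% intervals as bars, coloured by role, and 2-fold dotted. Ratios run from 1.19 for CHLG to 20.3 for CAO, and the bars of HEMA2, CHLG and GLK1 cross 0.

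Shares of reads between isoforms within a library do not depend on how the libraries were scaled, though each gene's length sets its share within a library. GSA2 gave 8.93% [5.08% to 14.3%] of the reads of GSA1 and GSA2 in wild type and 32.8% [27.7% to 38.2%] in dcl1-5. HEMA1 gave 66.7% [50.5% to 80.4%] of HEMA1 and HEMA2 reads in wild type and 83.8% [75.1% to 90.5%] in dcl1-5, with overlapping intervals. CHLI2 gave 3.57% [0.743% to 10.1%] of CHLI reads in wild type, on 3 reads, and 13.6% [9.18% to 19.2%] in dcl1-5, also with overlapping intervals. PORC gave 6.06% [1.68% to 14.8%] of PORB and PORC reads in wild type and 15.7% [11.2% to 21.3%] in dcl1-5, again with overlap. The exact odds ratio between the libraries, dcl1-5 over wild type, was 4.97 [2.75 to 9.55] for GSA2, 2.57 [1.02 to 6.46] for HEMA1 and 4.25 [1.25 to 22.5] for CHLI2, intervals that lie above 1. For PORC it was 2.89 [0.972 to 11.6], which includes 1.

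Several Calvin cycle reactions also run in the cytosol, in glycolysis or sugar synthesis. In dcl1-5 the plastid genes counted had a higher share of the reads for 4 of 5 reactions compared. The photosynthetic dehydrogenase genes GAPA1, GAPA2 and GAPB gave 4.23% [3.87% to 4.62%] of the reads shared with the cytosolic genes GAPC1 and GAPC2 in wild type and 15.3% [14.7% to 15.9%] in dcl1-5. PGK1 and PGK2 gave 8.51% [7.81% to 9.26%] and 25.5% [24.3% to 26.7%] of the reads shared with cytosolic PGK3. Plastid aldolases FBA1, FBA2 and FBA3 gave 9.89% [9.45% to 10.3%] and 21.1% [20.4% to 21.7%] against FBA4, FBA6 and FBA8. HCEF1 gave 5.91% [2.99% to 10.3%] and 24.4% [19.4% to 30.0%] against cytosolic fructose-bisphosphatase CYFBP. Triosephosphate isomerase went the other way: TIM gave 21.6% [20.0% to 23.2%] of the reads shared with cytosolic CTIMC in wild type and 10.7% [9.88% to 11.6%] in dcl1-5.

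**Figure D4:**
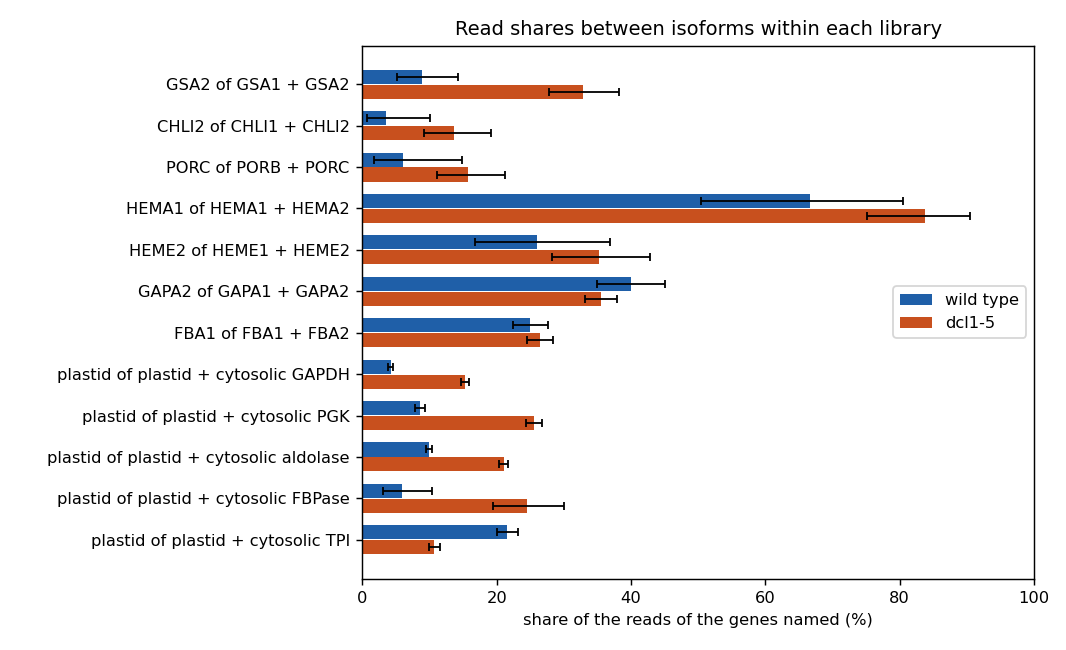
Share of reads in percent taken by the first gene or set named, within wild type (blue) and within dcl1-5 (orange), with exact binomial 95% intervals as bars. The share of the plastid genes counted is higher in dcl1-5 for GAPDH, PGK, aldolase and FBPase and lower for triosephosphate isomerase (TPI). The plastid GAPDH set holds GAPA1, GAPA2 and GAPB and leaves out GAPCP1 and GAPCP2.

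Other genes of these pathways were compared in the same way. Among 7 further tetrapyrrole genes 4 reached the mean of 5 RPM. Of these 4, 3 were 2-fold higher or more, against 33.8% of all genes tested, and 1 after the shift was subtracted, against 14.6%. CHLP (AT1G74470), the reductase that makes the phytyl tail, went from 36.0 to 257 RPM, a ratio of 7.15 [6.15 to 8.35]. It supplies the substrate that CHLG attaches. YCF54 (AT5G58250), a partner of the cyclase, went from 90.2 to 204 RPM (2.26 [2.02 to 2.52]), and PPO2 (AT5G14220), the other protoporphyrinogen oxidase, from 2.14 to 7.98 RPM (3.73 [1.90 to 7.87]). PPO2 reached the mean through its dcl1-5 value, which favours a call of higher.

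The heme branch and the bilin genes that follow it had 4 of 5 genes at the mean of 5 RPM and 1 called higher, against 33.8% of all genes. The median log2 ratio was 0.53, near the 0.63 of all genes, and -0.10 with TMM scaling. FC1 (AT5G26030), a ferrochelatase, had 13.4 and 21.7 RPM, a ratio of 1.62 [1.19 to 2.22], and heme oxygenase HO1 (AT2G26670) had 11.6 and 15.5 RPM, 1.34 [0.942 to 1.91]. The phytochrome chromophore gene HY2 (AT3G09150) had 1 read in wild type and 52 in dcl1-5, a ratio of 64.7 [11.1 to 2602]. HY2 was the gene called, and it reached the mean through its dcl1-5 value, which favours such a call. Set against the ferrochelatases FC1 and FC2, the 4 magnesium chelatase genes gave 58.4% [53.2% to 63.4%] of the reads in wild type and 72.8% [69.1% to 76.3%] in dcl1-5.

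Chlorophyll breakdown genes also had more RPM in dcl1-5. All 8 had more RPM in dcl1-5, as did 68.6% of all listed loci. Of the 8 genes 4 reached the mean of 5 RPM. These 4 were 2-fold higher or more, against 33.8% of all genes tested, and 3 after the shift was subtracted, against 14.6%. All 4 had less than 5 RPM in wild type and reached the mean through their dcl1-5 value, so their count supports no direction. With no filter 5 of the 8 were called, against 27.7% of all loci. RCCR (AT4G37000), which reduces a breakdown product of the pigment, went from 3.39 to 29.5 RPM, a ratio of 8.70 [5.36 to 14.9]. NYC1 (AT4G13250), a chlorophyll b reductase, had 10 and 66 reads, a ratio of 8.21 [4.19 to 17.9], and CLH1 (AT1G19670), a chlorophyllase, had 11 and 64, a ratio of 7.23 [3.78 to 15.2]. PAO (AT3G44880), the oxygenase that opens the pigment ring, had 18 and 16 reads, a ratio of 1.11 [0.527 to 2.30].

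Of 7 other regulators of chloroplast genes 6 were listed and 2 reached the mean of 5 RPM. Neither of these 2 was called higher, against 33.8% of all genes tested, and 2 genes are too few to compare with that share. HY5 (AT5G11260), a factor that promotes greening in light, had 7.66 and 15.5 RPM, a ratio of 2.02 [1.37 to 3.03] that is 0.93 as a log2 ratio with the pseudocount. GUN1 (AT2G31400), which acts in signalling from plastid to nucleus, had 9.44 and 15.1 RPM, 1.60 [1.098 to 2.33]. Among 7 further plastid isoforms of the Calvin cycle and glycolysis 3 of 6 tested were 2-fold higher or more, and 0 after the shift was subtracted, against the percentages given above. TKL2 (AT2G45290) had a ratio of 2.94 [2.15 to 4.06], CP12-1 (AT2G47400) 2.61 [2.32 to 2.94] and PGK2 (AT1G56190) 2.51 [2.13 to 2.96].

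Cytosolic counterparts had a median log2 ratio of 0.43 that was -0.25 with TMM scaling. Of 9 tested genes 1 was 2-fold higher or more, and 0 after the shift was subtracted, against 33.8% and 14.6% of all genes tested. The called gene was CTIMC (AT3G55440), from 367 to 1027 RPM, a ratio of 2.80 [2.66 to 2.95]. RPI1 (AT1G71100) had a ratio of 1.86 [1.57 to 2.22] and GAPC1 (AT3G04120) 1.44 [1.38 to 1.499]. Photosystem, light-harvesting and electron transport genes are the closest group in function. Of 41 such genes 40 were 2-fold higher or more, and 36 after the shift was subtracted, against the same 33.8% and 14.6%. Their median log2 ratio was 2.08. The medians of the chlorophyll and Calvin cycle genes, 1.29 and 1.60, lay below it, and no test of that difference was made. Seed coat markers at a mean of 5 RPM had a median log2 ratio of 1.53. Of 7 such genes 4 were 2-fold higher or more, and 3 after the shift was subtracted, against the same 33.8% and 14.6%. Of these 7, 4 reached the mean through their dcl1-5 value, GL2 and TT1 among them. With no filter 8 of 12 were called, against 27.7% of all loci. The markers GL2 (AT1G79840), BAN (AT1G61720) and TT1 (AT1G34790) had ratios of 4.68 [2.86 to 7.97], 3.82 [3.23 to 4.54] and 5.25 [2.49 to 12.3]. Endosperm markers had 1 of 3 called higher, against 33.8% of all genes tested. It was FIS2 (AT2G35670), with 3 and 53 reads, which also reached the mean through its dcl1-5 value. Embryo markers had a median log2 ratio of 0.17, with 2 of 8 higher and 2 lower, against 33.8% and 4.58% of all genes tested. The basal lineage factors WOX8 (AT5G45980) and WOX9 (AT2G33880) were 3.78-fold and 3.36-fold higher, and DRN (AT1G12980), a cotyledon factor, had 26.7 and 1.99 RPM. WOX8 reached the mean through its dcl1-5 value.

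**Figure D5:**
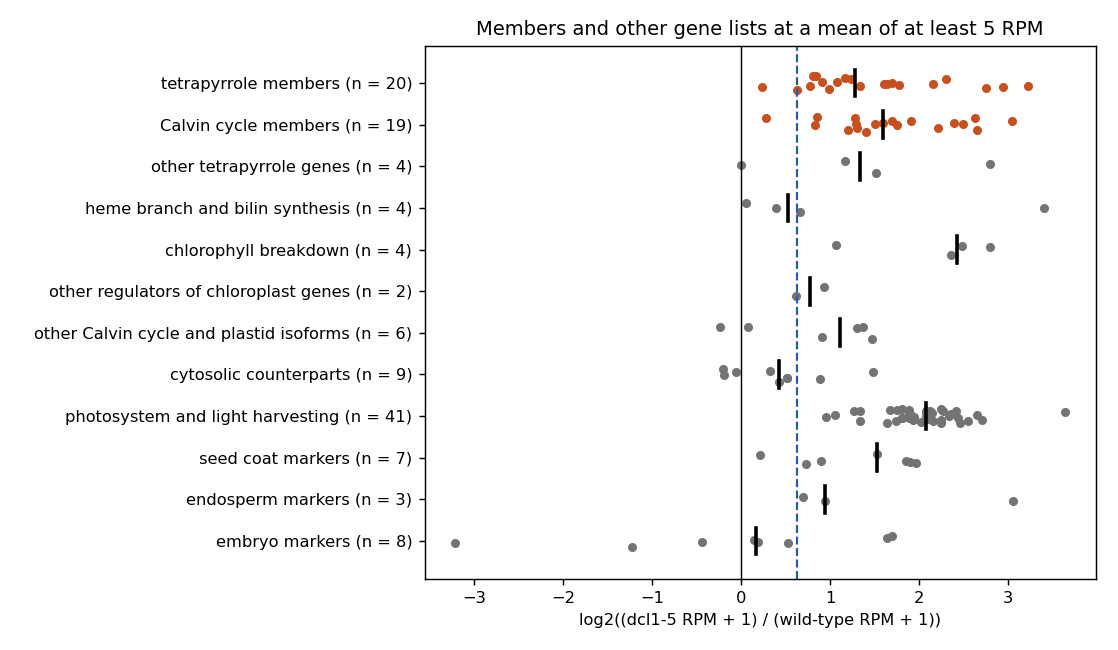
Log2 ratio of dcl1-5 to wild type (pseudocount of 1 RPM) of each gene at or above 5 RPM on average, by list, with the list's median as a black bar and the median of all genes tested, 0.63, dashed. Chlorophyll and Calvin cycle genes (orange) lie mostly right of the dashed line, with medians of 1.29 and 1.60, and 7 of the 9 cytosolic counterparts lie left of it, with a median of 0.43.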

How the data were processed

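The deposited table gives RPM per locus for both libraries. The authors mapped reads to TAIR9 with Bowtie (at most 2 mismatches within a seed of 25 nt), discarded reads with several matches, and assigned reads to the gene on the opposite strand, since 2 rounds of amplification make antisense RNA, per the series' design text. Unique mapping lowers the values of near-identical genes. RPM are scaled by the authors to genome-matching reads, per the file headers. The authors' ratio column was not used. All values (100%) were whole multiples of 1 read within 0.01 reads, so reads were recovered, and 90.2% and 88.0% of genome-matching reads lay in listed loci in wild type and dcl1-5. The floor of 3 reads was 0.535 and 0.665 RPM.

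Groups came from the strain labels. RPM have exact Poisson intervals, plain ratios exact conditional ones, and shares Clopper-Pearson ones. There was no test across genotypes. An exact binomial test of the recovered reads, with Benjamini-Hochberg adjustment at 0.05, compares these 2 libraries only: it called 6101 genes higher and 1466 lower of 10240. Names and exon lengths came from RefSeq TAIR10.1, whose identifiers matched 20509 of 20612 loci. That build differs from TAIR9, so no coordinates or sequences are given. On it HEME1, CHLD, GAPA1, TIM, PAO, RCCR, DCL1, PPO2, FC1, FBA3 and GL2 overlap another locus on the same strand, which makes their values less certain.

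All listed members are given. Other genes named were DCL1 and up to 3 genes of each list, those of largest absolute log2 ratio among genes averaging 5 RPM or more. LEC1, PDF1, AGL62, PAO, GAPCP1, GAPCP2 and the genes of the plastid, cytosolic and ferrochelatase sets in the read shares were named outside this rule. That was done after values were seen. Members and lists were chosen with earlier results of these data known. The alternatives tried were a pseudocount of 0.1 or 5 RPM, a filter of 20 RPM or none, equal totals, median-of-ratios scaling over genes at 20 RPM, TMM scaling (edgeR 4.0.16, R 4.3.3), a 4-fold threshold and the binomial test. Subtraction of the median of all genes was added after seeing the data. Python 3.11.15, numpy 2.4.6, pandas 2.3.3 and scipy 1.17.1 were used, and the calculations were tested on simulated data.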

Additional observations from a re-analysis of the deposited data

How the results depend on the processing

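No paired analysis was possible because there is 1 library per genotype, and no library could be left out. The main limit is the scaling. The medians of all members, tetrapyrrole members and Calvin cycle members (1.51, 1.29 and 1.60) were 1.05, 0.83 and 1.12 with median-of-ratios scaling and 0.88, 0.65 and 0.93 with TMM scaling, and of all gene calls 88.1%, 64.4% and 50.8% were higher with the authors' scaling, median-of-ratios and TMM. With TMM 18 of 39 members were at least 2-fold higher, 9 of them in the Calvin cycle, against 14.6% of all genes. Net of the median of all genes these counts were 17 and 9, with 8 tetrapyrrole members, against 14.6% of all genes. At a mean of 20 RPM fewer genes were tested, and 19 of 25 members and 5 of 9 tetrapyrrole members were higher, against 25.8% of all 4810 genes. At 4-fold 11 of 39 members were higher, 5 of 20 tetrapyrrole and 6 of 19 Calvin cycle members, against 7.82% of all genes. The count of members at least 2-fold lower was 0 under every setting run. The binomial test called 38 of 39 higher and 0 lower, against 59.6% and 14.3% of all genes. At low depth, members with 3 or 4 wild-type reads (CHLI2, PORC, CAO and GLK2) have ratios known only within wide intervals.

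Among the other lists, with median-of-ratios scaling the medians were 0.33 for other regulators, 1.60 for photosystem genes and 0.49 for endosperm markers, and 1 other plastid isoform was higher. With TMM they were -0.10 for the heme branch, 0.16 for other regulators, -0.25 for cytosolic counterparts, 1.41 for photosystem genes and 0.30 for endosperm markers, and 1 other tetrapyrrole gene, 0 other plastid isoforms, 0 cytosolic counterparts and 1 embryo marker were higher. Net of the median, 1 other tetrapyrrole gene, 0 other plastid isoforms and 0 cytosolic counterparts were higher. At 4-fold, 1 other tetrapyrrole gene, 22 photosystem genes and 0 other plastid isoforms, cytosolic counterparts, seed coat and embryo markers were higher, and 1 embryo marker was lower. At a mean of 20 RPM, 2 of 3 seed coat markers, 0 of 1 endosperm marker and 0 of 4 embryo markers were higher and 1 embryo marker was lower, and no heme branch, breakdown or regulator gene was abundant enough to give a value. With no filter, 8 seed coat markers were higher and 1 endosperm marker lower, and the medians were -0.031 for other regulators and 0.30 for endosperm markers. Pseudocounts of 0.1 and 5 RPM gave a median of 2.88 for breakdown genes and 1 regulator higher, and medians of 0.58 for regulators and 1.89 for photosystem genes. By the binomial test, 2 heme branch genes, 2 regulators, 6 cytosolic counterparts, 7 seed coat, 3 endosperm and 4 embryo markers were higher and 2 cytosolic counterparts lower. Of the 9 embryo markers 3 had fewer RPM in dcl1-5. Among them were PDF1 and DRN, with ratios of 0.737 [0.722 to 0.752] and 0.0746 [0.0335 to 0.145]. Of all genes tested, 19% were higher with median-of-ratios scaling, 14.6% with TMM, 14.6% net of the median and 7.82% at 4-fold. It was 25.8% at a mean of 20 RPM, 27.7% with no filter and 59.6% by the binomial test. With pseudocounts of 0.1 and 5 RPM it was 36.6% and 23.3%. The cause of the shifts in these lists was not tested.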
